A study of Mus musculus with 2 samples.

Results

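Single NIH3T3 fibroblasts that carried an H2B-iRFP reporter were divided by how brightly they fluoresced, and the transcripts of the bright and dim cells were compared inside each plate and sort gate. Cells with at least 1000 genes detected were ranked by the area signal of the red detector R4 within each of the 8 combinations of plate and Venus gate. The brightest and the dimmest of 3 equal parts were kept as the bright group and the dim group, and the middle part was left out of every test. The 2 outer groups held 510 of the 768 cells in the series, 255 bright and 255 dim, and 257 cells were in the middle group. Only 1 cell had fewer than 1000 genes. Raw counts were summed over the 31 or 32 cells of each group, which gave 8 pairs of a bright and a dim sum. The cells were thus chosen by measured fluorescence, so the fluorescence of the groups is described here without a test.

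The cells are an NIH3T3 derivative, NIH3T3-Rev-VNP1-H2B-iRFP, with a Venus reporter named for the clock repressor Nr1d1 and a fusion of histone H2B with iRFP, a fluorescent protein that emits in the near infrared. Both plates came from unsynchronized cells at 95% confluency about 5 days after seeding, and every cell carried both reporters. Each plate of 384 wells held 4 Venus bins, called bin 1 (dimmest) to bin 4 (brightest). The image names in the sorting record give the high-RFP sort for all cells of plate 1 and the low-RFP sort for all cells of plate 2, whereas the labels describe 2 iRFP bins for each plate. By the image names the plate and the iRFP sort cannot be told apart, and comparisons were therefore made inside plates. The 8 pairs come from 2 plates of 1 line, so p-values measure only the spread between these pairs.

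H2B is a core histone, and its fusion to a fluorescent protein marks chromatin. Cells double their DNA and most of their histones in S phase, carry the doubled content through G2 and mitosis, and also grow in size over the cycle. Transcripts of replication enzymes rise around S phase, and transcripts of the mitotic spindle and of mitotic kinases rise in G2 and mitosis. Replication-dependent histone genes are transcribed in S phase, and their messages end in a stem-loop rather than a poly(A) tail. In a confluent culture, many fibroblasts leave the cycle through contact inhibition.

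The 16 sums held 24504939 to 28893924 counts each. Median counts per cell were 823577 in the dim and 842003 in the bright group of plate 1, and 856097 and 841307 on plate 2. Among defining fibroblast genes, Col1a1 (a chain of type I collagen) stood between 6511 and 10646 CPM (counts of a gene per 1000000 counts of a sum) over all sums and Vim (vimentin) between 3162 and 4667 CPM. Lum reached no more than 1.03 CPM, and Thy1 had a count in 396 of 768 cells. Of 17 markers of epithelial, endothelial, blood, fat and muscle cells, 14 had a matching row. Their summed level was 5.95 to 12.5 CPM in the dim, 4.00 to 13.8 CPM in the middle and 7.28 to 10.1 CPM in the bright groups. Epcam, Ptprc, Cd3e, Cdh5 and Adipoq had a median of 0 CPM, and most of the summed level came from Cdh1 and Des.

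The ranking separated the groups by 1.56 to 2.25 times in median fluorescence. On plate 1 the dim medians were between 257223 and 276781 units and the bright medians between 466703 and 613941 units. On plate 2 they were between 101157 and 116471 units and between 181562 and 200232 units. The largest ratio was that of plate 1 bin 1 and the smallest that of plate 2 bin 1. Cells on both sides of a boundary were close: in plate 1 bin 1 the brightest dim cell had 308933 units and the next cell, in the middle group, 311535, while the brightest middle cell had 414816 and the faintest bright cell 415190. The dim group of plate 1 was still 1.40 times as bright as the bright group of plate 2, by the median of the gate medians. The neighbouring red detectors R3 and R5 were also higher in the bright group in 8 of 8 pairs.

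The iRFP transcript, which the ranking did not use, was more abundant in the brighter cells of nearly every gate. On plate 1 it stood at 39.0, 29.3, 33.9 and 34.2 CPM in the dim groups of bins 1 to 4, at 40.7, 41.5, 35.2 and 44.9 CPM in the middle groups, and at 58.9, 49.4, 52.0 and 42.0 CPM in the bright groups. On plate 2 the dim groups had 18.0, 14.6, 12.2 and 18.2 CPM, the middle groups 17.0, 16.9, 18.2 and 19.7 CPM, and the bright groups 17.6, 20.7, 21.4 and 22.4 CPM. The bright value exceeded the dim value in every bin of plate 1, and on plate 2 only bin 1 lacked the difference. The bright group was higher in 7 of 8 pairs, by 0.49 ± 0.09 on the log2 scale (SE, n = 8 pairs), which is 1.40-fold. In edgeR's quasi-likelihood test the unadjusted p was 1.8e-04, and the p adjusted over all 13909 genes by Benjamini-Hochberg was 0.599, above the threshold of 0.05. DESeq2 gave iRFP no adjusted p under its independent filtering; without that filtering it gave 0.0018, in a fit that called 0.0575% of all genes higher and 0.0791% lower. An exact two-sided sign-flip permutation test of the 8 differences gave an unadjusted p of 0.016. Over 24 other settings the adjusted p for iRFP ranged from 0.0018 to 0.9998 and the log2 difference from 0.39 to 0.57. The difference was 0.57 on plate 1 and 0.39 on plate 2.

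**Figure D1:**
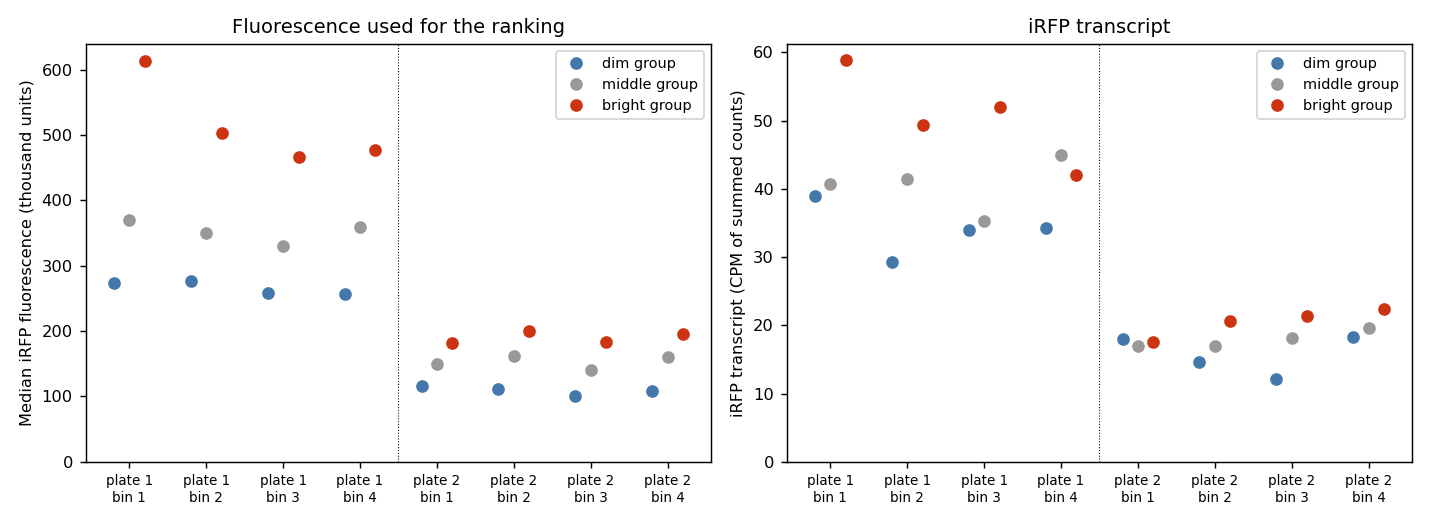
Left, median fluorescence of the dim, middle and bright groups in each plate and Venus bin (axis in units divided by 1000), the measure that defined the groups; right, the iRFP transcript of the same groups (CPM of summed counts, 1 point per sum). The transcript is higher in the bright than the dim group in 7 of 8 pairs, and every dim value of plate 1 (29.3 CPM or more) lies above every bright value of plate 2 (22.4 CPM or less).

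Across the 95 or 96 cells of a gate, fluorescence and the iRFP transcript had a Spearman correlation of 0.07 to 0.41 with a median of 0.32, as a description of cells that share a library plate. The Venus transcript (YFP), which marks the other reporter, did not pass the test between the iRFP groups. It ran from 15.6 to 739 CPM in the dim and from 21.0 to 623 CPM in the bright groups across the Venus bins, and was higher in the bright group in 3 of 8 pairs (log2 difference -0.09 ± 0.08). Nr1d1 itself differed by -0.03 ± 0.08 and was higher in 2 of 8 pairs.

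No gene passed the edgeR test between bright and dim cells (0 of 13909 genes at an adjusted p under 0.05). At an unadjusted p under 0.05 there were 869 genes (6.25% of those tested), 434 higher (3.12%) and 435 lower (3.13%) in the bright group. DESeq2, run as an alternative, called 25 of the 4471 genes it gave an adjusted p, 7 higher and 18 lower (0.157% and 0.403%). On simulated counts for these 13909 genes the edgeR fit called 100% of genes raised by 1 and 86% of genes raised by 0.5 on the log2 scale, and 96% and 78% of genes lowered by as much. The 50 genes changed by each amount were drawn from the more abundant genes and were changed alike in every pair. These shares therefore do not carry over to scarcer genes or to genes whose difference varies between pairs. The interaction of brightness with plate was called for 0 genes by edgeR (662 at an unadjusted p under 0.05, 4.76%) and for 5 by DESeq2 (0.0359%). These 5 were Lynx1, Lrp5, Ucma, Srpx2 and C4b, named after their values were seen. The interaction with the order of the Venus bins was called for 0 genes by edgeR, with 538 (3.87%) at an unadjusted p under 0.05, and DESeq2 was not run on it.

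Of the lists examined, transcripts of G2 and mitosis had the largest median difference, and pairs differed widely in it. The list of 54 G2/M genes had a median log2 difference of 0.87, against 0.00 over all genes tested. Of the 54, 53 were fitted above 0, beside 7093 of all 13909 genes. None of the 54 passed the edgeR test after adjustment. At an unadjusted p under 0.05 there were 23 of them, all higher in the bright group (42.6%, beside 3.12% of all genes tested that were higher at that p). DESeq2 called 1, Tmpo (thymopoietin, a lamin-binding protein of the nuclear envelope). Of the 4471 genes to which it gave an adjusted p, it called 0.157% higher. Ect2 of the list got no adjusted p from DESeq2, so not all 54 were open to a call. The median of the list was above 0 in 7 of 8 pairs. It was 2.26, 1.65, -1.87 and 0.87 in bins 1 to 4 of plate 1 and 0.76, 0.47, 0.45 and 0.74 in bins 1 to 4 of plate 2. Bin 3 of plate 1 thus went the opposite way from all other pairs.

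**Figure D2:**
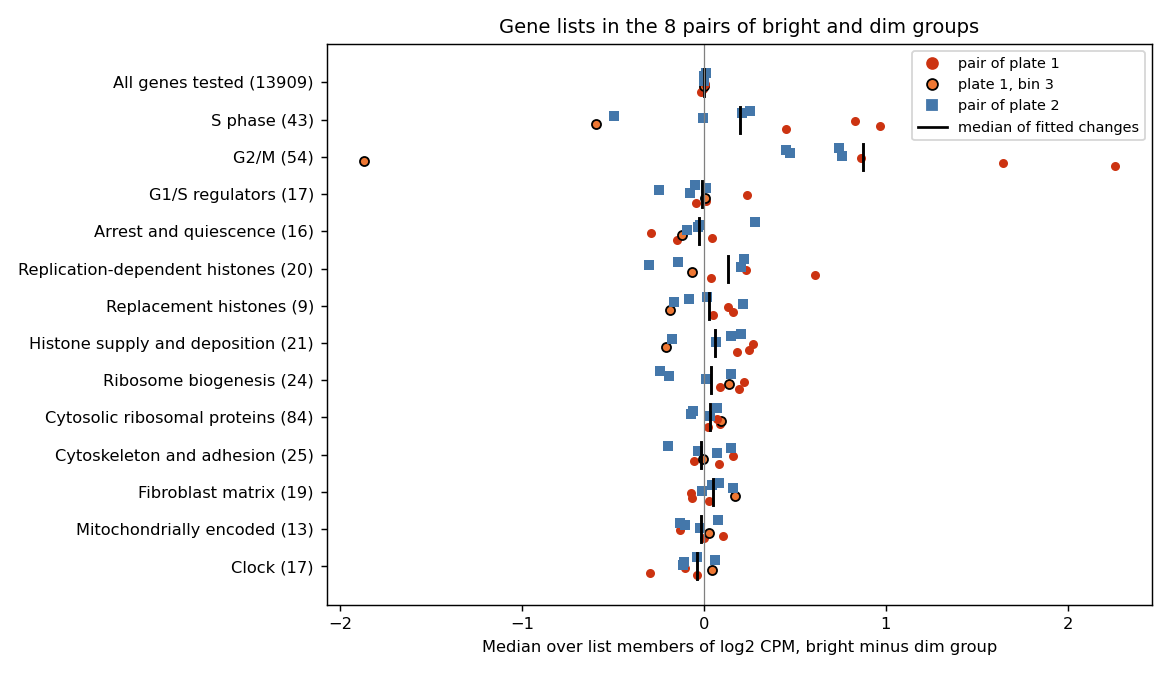
Median over the tested members of each gene list (number in brackets) of the log2 CPM difference between bright and dim groups, with 1 point per pair and a black bar for the median of the fitted changes. The G2/M list spreads from -1.87 in plate 1 bin 3 to 2.26 in plate 1 bin 1, while no pair median of the ribosomal protein list lies farther from 0 than 0.09.

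Single genes of G2 and mitosis also differed widely between pairs. Of those given here, Ccna2 and Ccnb1 were named for their roles and are not among the 54. Top2a, the topoisomerase that untangles chromosomes before mitosis, had 8.31, 12.1, 104 and 58.6 CPM in the dim groups of plate 1 and 21.0, 48.0, 34.8 and 162 CPM in the bright groups. On plate 2 the dim groups had 18.6, 64.7, 23.9 and 14.6 CPM and the bright groups 56.4, 134, 39.9 and 127 CPM. The ranges overlapped, but within a gate the bright value was the higher in 7 of 8 pairs, by 1.25 ± 0.38 on the log2 scale (edgeR, unadjusted p = 0.0066, adjusted p = 0.736). Ccna2 (cyclin A2, needed for S phase and entry into mitosis) had 0.489 and 0.574 CPM in the dim groups of bins 1 and 2 of plate 1, and 8.25 to 51.9 CPM in the other 6 dim groups. Its bright groups ran from 12.9 to 74.0 CPM, and the difference was 1.39 ± 0.59. Ccnb1 (cyclin B1, the partner of Cdk1 in mitosis) differed by 1.16 ± 0.55, Cdk1 by 0.60 ± 0.30, and Mki67, the proliferation antigen, by 0.91 ± 0.57. Mki67 differed by 1.68 on plate 1 and 0.46 on plate 2, by 0.53 without plate 1 bin 1 and by 0.59 without plate 1 bin 2. Ect2, an exchange factor for cytokinesis, had a dim median of 7.55 CPM (0.54 to 17.2) and a bright median of 17.5 CPM (6.90 to 26.5), a difference of 1.33 ± 0.38 (edgeR, adjusted p = 0.686). Tmpo had a dim median of 70.9 CPM (50.7 to 106) and a bright median of 96.2 CPM (75.3 to 125), higher in 6 of 8 pairs, a difference of 0.45 ± 0.10 (edgeR, adjusted p = 0.613; DESeq2, adjusted p = 7.5e-04). An alternative added after the data were seen left out cells above 2000 CPM of the G2/M list. By construction it removes the cells highest in such genes, so smaller differences there are no test of them. Tmpo was then at 0.25 (edgeR, unadjusted p = 0.056), Ccna2 at 0.03, Ccnb1 at -0.06 and Mki67 at -0.05. With cells ranked by iRFP over forward scatter area, Tmpo was at 0.06, Top2a at -0.65, Cdk1 at -0.71, Ccnb1 at -0.58, Ccna2 at -0.50 and Mki67 at -0.21.

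**Figure D3:**
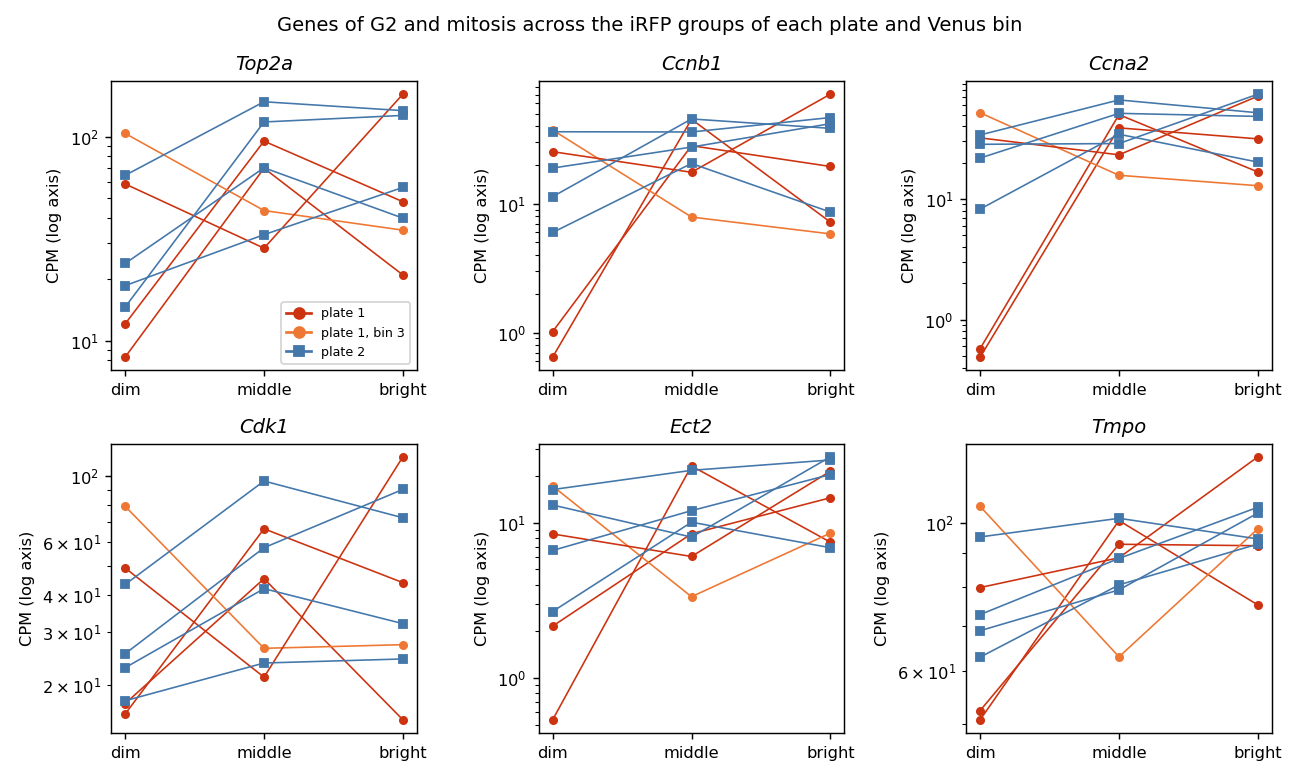
CPM (log axis) of 6 genes of G2 and mitosis in the dim, middle and bright groups, with 1 line per plate and Venus bin. The lines cross and differ in shape between gates: Top2a has dim, middle and bright medians of 21.3, 70.2 and 52.2 CPM, and its line for plate 1 bin 3 runs from 104 down to 34.8 CPM.

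The promoters of these genes often share 2 short elements, and 3 windows that hold both are printed to show where these lie in genes named above. CCAAT is the core of the box bound by NF-Y, and TTTGAA is a common form of the cell cycle genes homology region (CHR), the element through which the DREAM and MMB complexes repress and then activate late cell cycle genes. In RefSeq windows of the 250 bases before a start (GRCm38.p6, a build other than that of the counts), TTTGAA on either strand was found in 21 of 52 windows of 47 matched G2/M genes (40.4%), against 10.7% of 11956 windows of the 9346 tested genes that had one. CCAAT on either strand was found in 75.0% of the G2/M windows and 36.2% of all windows, and both in 34.6% and 4.01%. In 34 windows of S phase genes the shares were 17.6%, 67.6% and 11.8% in the same order. Not every gene named above has both: the Ccnb1 window held the NF-Y core but not the CHR form, and the 2 Tmpo windows each held a different one of them. Neither motif contains the other, and a match is a description of these letters only. The last 120 bases before the start are shown 5′ to 3′ on the gene's own strand, the minus strand in each case, with matches to either motif on either strand in capitals: Top2a at chr11:99024190-99024309, Ect2 at chr3:27153879-27153998 and Cdk1 at chr10:69352913-69353032.
Top2a: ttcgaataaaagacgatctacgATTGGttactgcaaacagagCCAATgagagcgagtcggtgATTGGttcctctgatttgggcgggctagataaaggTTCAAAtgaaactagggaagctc
Ect2: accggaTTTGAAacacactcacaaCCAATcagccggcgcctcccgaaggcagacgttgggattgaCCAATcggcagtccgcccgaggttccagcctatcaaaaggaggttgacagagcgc
Cdk1: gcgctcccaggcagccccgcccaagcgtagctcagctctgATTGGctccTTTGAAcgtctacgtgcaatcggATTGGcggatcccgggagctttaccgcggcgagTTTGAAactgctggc

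In most sums a few cells held a large share of the G2/M transcripts. Per 1000000 total counts, without the TMM factors, the summed G2/M transcripts ran from 985 to 2676 CPM in the dim, 1415 to 2917 CPM in the middle and 1363 to 3405 CPM in the bright groups. The 3 cells highest in these transcripts held 12.9% to 58.0% of a dim group's G2/M counts and 34.3% to 64.0% of a bright group's. Cells above 2000 CPM of the list numbered 32 of 255 dim cells (12.5%, exact 95% interval 8.74% to 17.3%), 40 of 257 middle cells (15.6%, 11.4% to 20.6%) and 34 of 255 bright cells (13.3%, 9.41% to 18.1%). These intervals cover counting error only, and 42 cells lay between 1500 and 2500 CPM. Above 4000 CPM there were 18 dim, 25 middle and 26 bright cells. The dim groups of bins 1 and 2 on plate 1 had 0 cells above 2000 CPM, and that of bin 3 had 5, against 1 in its bright group. The threshold was chosen after the values were seen.

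**Figure D4:**
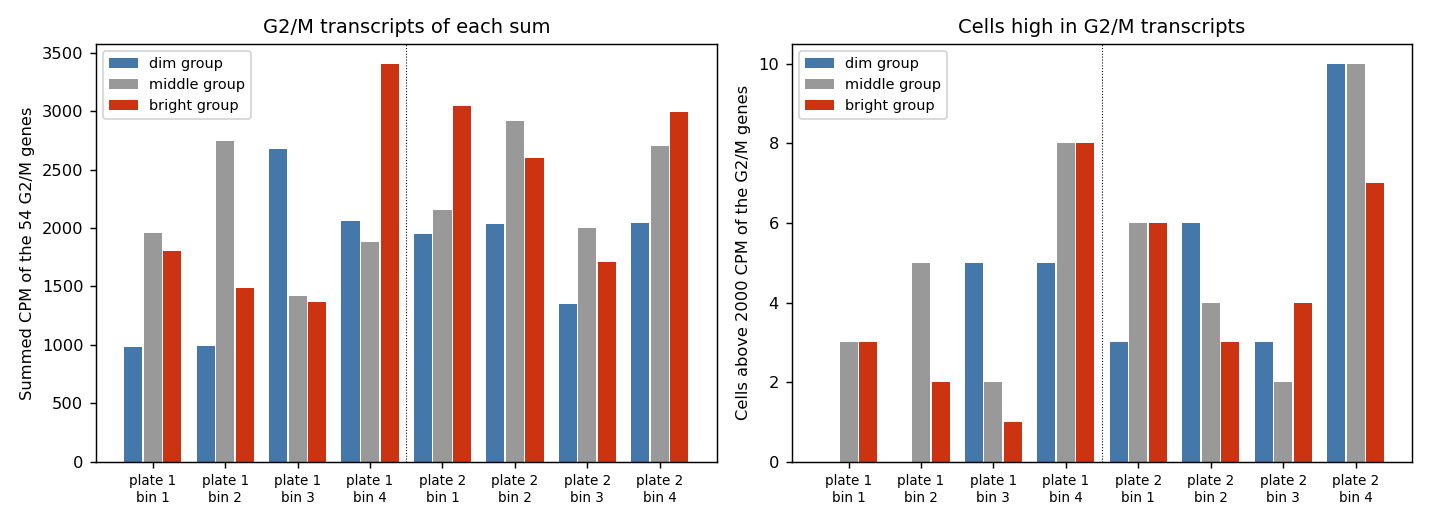
Left, summed CPM (of total counts, without TMM factors) of the 54 G2/M genes in each dim, middle and bright sum; right, the number of cells above 2000 CPM of these genes in the same groups of 31 to 33 cells. Dim groups of plate 1 bins 1 and 2 have no such cell and sit at 985 and 988 CPM, and the dim group of plate 1 bin 3 has 5 and sits at 2676 CPM.

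The middle group entered no test. The median of the list over gates was 4.19 log2 CPM in the dim, 4.52 in the middle and 4.66 in the bright groups, but within gates the middle group lay between the outer groups in 3 of 8. The list's median difference between middle and dim was 0.59 (above 0 in 6 of 8 pairs), and between bright and middle -0.11 (above 0 in 3 of 8 pairs). An alternative added after the data were seen left out cells above 2000 CPM. By construction it removes the cells highest in these genes, so it cannot test the list. The median was then 0.06 over the 42 genes that passed the filter. In that fit 1 gene had an unadjusted p under 0.05, beside 2.77% of all genes tested that were higher and 5.92% in either direction. With gates cut at the median in place of 3 parts the list's median was 0.02. With cells ranked by iRFP over forward scatter area, which by construction moves cells of low scatter to the bright side, it was -0.31. With 1 pair left out it ran from 0.61 to 1.23. The highest value came without plate 1 bin 3, the pair that went the opposite way, singled out after its value was seen. Without that pair 48 of 54 genes had an unadjusted p under 0.05 (background 3.73%). There edgeR called 4 genes over all tested (0.0288%), all higher: Ube2c and Hmgb2 of the list, and Smc2 and Arhgap19, which are not in it. Plate 2 alone had a median of 0.74, 38 of 54 genes higher at an unadjusted p under 0.05 (background 2.82%) and 0 called. The 1 gene called over all tested there (0.00713%) was the mitotic kinase Plk1, which is not in the list (log2 difference 1.68, adjusted p = 0.018). Across the cells of a gate, fluorescence and the G2/M level had a Spearman correlation of -0.04 to 0.18, a description with no test.

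S phase genes had medians of opposite sign on the plates. The 43 genes had a median difference of 0.20, with 0.46 on plate 1 and -0.07 on plate 2, and 42 of the 43 were fitted above 0, beside 7093 of all 13909 genes. With 1 pair left out the median ran from 0.08 to 0.34 (highest without plate 1 bin 3). It was -0.22 with cells ranked by iRFP over forward scatter area and -0.04 with gates cut at the median. The pair medians ran from -0.59 to 0.97. None passed the edgeR test, and 2 had an unadjusted p under 0.05 (4.65%, beside 6.25% of all genes). These were Pold3, a subunit of DNA polymerase delta (0.26 ± 0.09), and Casp8ap2, which acts in histone gene transcription (0.24 ± 0.10). Pcna, the sliding clamp of DNA polymerase, had a dim median of 21.0 CPM (12.8 to 28.2) and a bright median of 19.2 CPM (12.4 to 30.4), with a difference of 0.06 ± 0.15. Mcm2, of the replicative helicase, differed by 0.12 ± 0.18, and the licensing factor Cdt1 by 0.04 ± 0.36 with its inhibitor Gmnn at 0.16 ± 0.14. The plates differed in sign for Mcm2, with 0.48 on plate 1 and -0.24 on plate 2 (edgeR interaction, unadjusted p = 0.042), which did not pass adjustment over all genes.

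Regulators of the G1 to S step and of arrest had medians near 0. The 17 G1/S genes tested had a median of -0.01 and the 16 genes of arrest and quiescence a median of -0.03. In each of these lists 1 gene was higher and 1 lower at an unadjusted p under 0.05, and none passed adjustment. That is 11.8% of the G1/S list and 12.5% of the arrest list, beside 6.25% of all genes. Cyclin D2 (Ccnd2) was higher by 0.14 ± 0.05 and the retinoblastoma gene Rb1 differed by -0.20 ± 0.08. Among arrest genes, the transcription factor Foxo3 differed by -0.18 ± 0.06 and the pocket protein Rbl2 by 0.23 ± 0.10. The E cyclins Ccne1 and Ccne2 differed by 0.18 ± 0.20 and -0.01 ± 0.25, and Ccnd1 by -0.09 ± 0.08. Of the CDK inhibitors, Cdkn1a (p21) had a dim median of 171 CPM and a bright median of 192 CPM (0.09 ± 0.10), and Cdkn1b (p27) 145 and 146 CPM (0.02 ± 0.04).

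No endogenous histone gene passed the test between bright and dim cells. Of 52 replication-dependent histone genes in the table, 20 passed the filter on low counts, since most had few counts. Messages of these genes lack a poly(A) tail, and how well the libraries captured such messages was not tested. The median difference of the 20 was 0.13, with 0.26 on plate 1 and -0.06 on plate 2, and 13 of 20 were fitted above 0. It ran from 0.06 to 0.28 with 1 pair left out (lowest without plate 2 bin 4, highest without plate 2 bin 2) and was -0.15 with cells ranked by iRFP over forward scatter area. None passed the edgeR test, and 1 had an unadjusted p under 0.05 (5.00%, beside 6.25% of all genes). That gene, Hist1h2bf, encodes an H2B and was higher in the bright group in 8 of 8 pairs, as were 0.518% of all genes tested. It had 2.73, 1.65, 2.17 and 2.47 CPM in the dim groups of plate 1 and 3.83, 3.23, 3.78 and 2.89 CPM in the bright groups. On plate 2 the dim groups had 0.786, 0.733, 0.550 and 1.02 CPM and the bright groups 1.20, 1.20, 1.47 and 1.53 CPM. The difference was 0.72 ± 0.17 (edgeR, unadjusted p = 0.0015, adjusted p = 0.657). Histone genes are near-identical copies, so how the authors' counting divided reads among them, or between them and the H2B reporter, is not known from the sources used here.

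The other H2B genes had larger errors. Hist1h2bm differed by 0.64 ± 0.30, Hist1h2be by 0.47 ± 0.36, Hist1h2bc by 0.05 ± 0.36 and Hist1h2bg by 0.05 ± 0.27. The 9 replacement histone genes, which are expressed outside S phase too, had a median of 0.03 with 0 of 9 at an unadjusted p under 0.05. H2afz (H2A.Z) had a dim median of 270 CPM (144 to 346) and a bright median of 234 CPM (190 to 317), a difference of 0.04 ± 0.13. H1f0, the linker histone of resting cells, differed by -0.09 ± 0.09 and H2afx, the variant phosphorylated at DNA breaks, by 0.20 ± 0.09. Among 21 genes that supply and deposit histones the median was 0.06. It ran from 0.05 to 0.12 with 1 pair left out (0.11 without plate 1 bin 3, 0.12 without plate 2 bin 2). At an unadjusted p under 0.05 there were 3, all higher (14.3%, beside 3.12% of all genes). They were Hjurp, the chaperone of the centromeric histone (0.53 ± 0.18), Casp8ap2, and Supt16, a subunit of the FACT complex (0.13 ± 0.06). Hjurp was also counted in the G2/M list and Casp8ap2 in the S phase list. Slbp, which binds the stem-loop of histone messages, differed by 0.11 ± 0.08.

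Cells of the bright group were slightly larger by their forward scatter images, while other size measures and total counts did not pass the test. Image size in the forward scatter channel had a median of 1870 units in the dim groups (1825 to 1943), 1880 in the middle and 1906 in the bright groups (1867 to 1956). It was higher in 8 of 8 pairs, by 1.83% (mean log2 difference 0.0261 ± 0.0125, SD), with an exact sign-flip permutation p of 0.0078, the smallest that 8 pairs allow. Adjusted over the 19 measures tested, p was 0.0495. The image's long axis moment was higher by 8.92% and its short axis moment by 4.66%, each in 8 of 8 pairs and with the same adjusted exact permutation p of 0.0495. All 3 of these measures are read from the forward scatter image. Forward scatter area was higher in 7 of 8 pairs by 6.11% (exact permutation, adjusted p = 0.134), and side scatter area on the violet laser in 7 of 8 pairs by 10.5% (adjusted p = 0.0594, same exact test). Forward scatter height and width were each higher in 5 of 8 pairs (adjusted p = 0.906 and 0.564, same test). Light loss areas, imaging and violet, were higher in 5 and 6 of 8 pairs (adjusted p = 0.285 and 0.243, same test). Across the cells of a gate, fluorescence and forward scatter image size had a median Spearman correlation of 0.07, a description with no test. Total counts differed by -0.56% (exact permutation, adjusted p = 0.699), genes detected by 0.63% (adjusted p = 0.286), and the mitochondrial percentage was lower in 7 of 8 pairs (adjusted p = 0.111, same test). Without plate 1 bin 3, image size in forward scatter and both axis moments passed (exact permutation, adjusted p = 0.0495 each). Image size in side scatter and both side scatter areas also passed there, with the same adjusted p in that test. With any other pair left out, image size in forward scatter and both axis moments had adjusted p up to 0.099 and none of the 19 measures passed, where 7 pairs allow no exact p below 0.016. When cells were ranked by iRFP over forward scatter area, the difference in image size was 0.0055, and those of the long and short axis moments were -0.0061 and -0.0023.

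**Figure D5:**
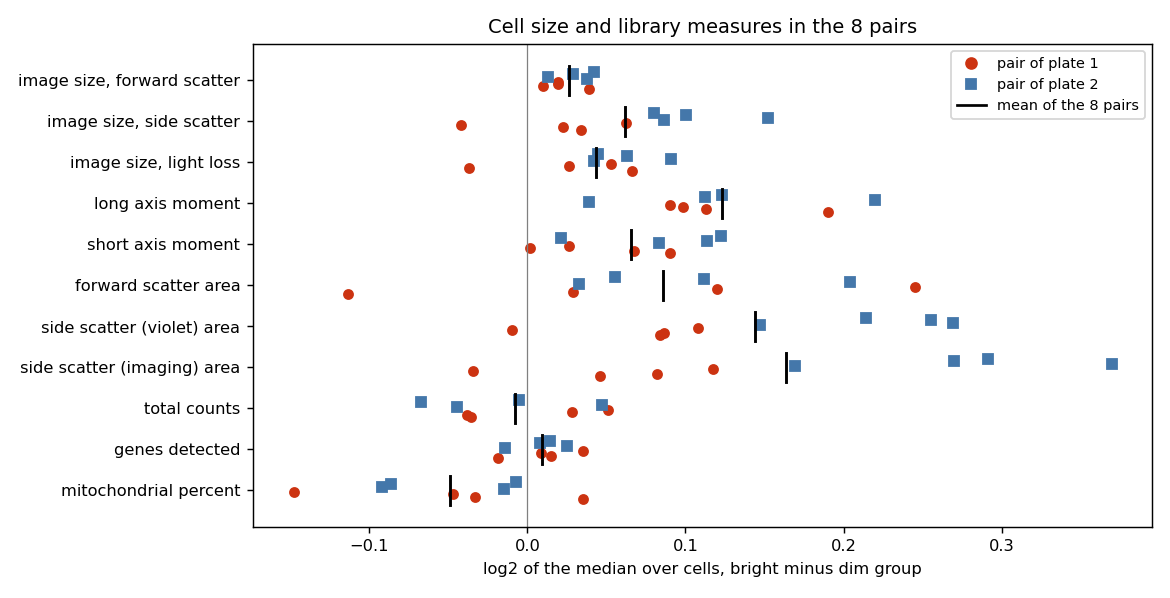
Differences between bright and dim groups in size, scatter and library measures (log2 of the median over cells), with 1 point per pair and a black bar for the mean. All 8 points of image size in forward scatter and of both axis moments lie above 0, and the points of total counts lie on both sides of it.

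Lists tied to cell growth and to the body of the fibroblast had medians near 0. The 84 cytosolic ribosomal protein genes had a median difference of 0.03, with 3 at an unadjusted p under 0.05 (3.57%, beside 6.25% of all genes) and none past adjustment. Of the 84, 79 were fitted above 0, beside 7093 of all 13909 genes. Rps12 had a dim median of 1273 CPM and a bright median of 1352 CPM (0.09 ± 0.03). Ribosome biogenesis genes (24) had a median of 0.04 with 0 at an unadjusted p under 0.05, and 21 were fitted above 0. Their median was 0.14 on plate 1 and -0.07 on plate 2, with pair medians from -0.24 to 0.22. In the edgeR interaction with plate, 7 of the 24 had an unadjusted p under 0.05, beside 4.76% of all genes, and none passed adjustment. Cytoskeleton and adhesion genes (25) had a median of -0.02, and 1, the alpha-tubulin Tuba1b, had an unadjusted p under 0.05 (0.17 ± 0.07). The nuclear lamin Lmnb1 differed by 0.48 ± 0.23. The 13 mitochondrially encoded genes had a median of -0.01, with 0 at an unadjusted p under 0.05.

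Among 19 fibroblast matrix genes the median was 0.05, and 4 were higher and 1 lower at an unadjusted p under 0.05 (26.3%, beside 6.25% of all genes), with none past adjustment. The small proteoglycan Dcn differed by 0.63 ± 0.19, Bgn by 0.19 ± 0.07 and Col12a1 by -0.32 ± 0.11. Col1a1 had a dim median of 8022 CPM (6614 to 10170) and a bright median of 8981 CPM (6940 to 10646), higher in 7 of 8 pairs by 0.14 ± 0.05 (edgeR, adjusted p = 0.771). Among 17 clock genes the median was -0.04 and 1 passed an unadjusted p of 0.05 (5.88%, beside 6.25% of all genes). It was the output gene Dbp, which was lower in 7 of 8 pairs (-0.24 ± 0.07).

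The genes that DESeq2 called differed by -0.42 (Sgk1) to 0.45 (Tmpo) on the log2 scale. Among the 7 higher ones were Tmpo, Itgb5, Nde1, Jpt2, Cd81 and Malat1. Itgb5, the beta-5 integrin chain, was higher in 8 of 8 pairs, as were 0.518% of all genes tested. It had 164 to 258 CPM in the dim and 181 to 297 CPM in the bright groups, a difference of 0.21 ± 0.04 (DESeq2, adjusted p = 7.5e-04; edgeR, adjusted p = 0.599). Nde1, a dynein regulator of the mitotic spindle, was higher in 7 of 8 pairs by 0.27 ± 0.07. Of the 18 lower genes, Sgk1, a kinase induced by serum and glucocorticoids, had the lowest adjusted p. It stood at 244, 238, 199 and 303 CPM in the dim groups of plate 1 and 141, 189, 165 and 162 CPM in the bright groups. On plate 2 the dim groups had 206, 172, 288 and 282 CPM and the bright groups 176, 157, 228 and 213 CPM. Its difference was -0.42 ± 0.08, below 0 in 8 of 8 pairs (DESeq2, adjusted p = 5.4e-05; edgeR, adjusted p = 0.599). The Kit ligand gene Kitl (-0.21 ± 0.04) and the thrombin receptor gene F2r (-0.21 ± 0.05) were also lower in 8 of 8 pairs. Of all genes tested, 0.59% were lower in 8 of 8 pairs. Among the 18 were the lipid synthesis enzymes Pmvk, Scd1, Scd2 and Elovl6 and the glutathione transferases Gstm1 and Gstp1. Also among them were Slpi, Mrpl45, Pgm1, Tm4sf1, Tspan5, Filip1l, Fam180a and Rab9, with differences between -0.20 and -0.27. These genes are named because DESeq2 called them, after their values were seen.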

How the data were processed

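FLASH-seq libraries of 768 cells on 2 plates were read by the authors as paired 75 bp ends after 21 and 8 PCR cycles, per the labels' protocols. The submitters' processing notes name STAR 2.7.11a, SAMtools, bedtools and HTSeq with GRCm39. The use of strand and of molecular identifiers is not given in the sources used here, so reads of overlapping genes cannot be told apart. The deposited table holds raw counts per gene and cell; per its values they are whole numbers. The deposited sorting record holds detector and image signal intensity and score values in arbitrary units, scaled by the authors in a way not given in the sources used here. It was joined to the counts by plate and well.

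Groups were made within plate and gate, and counts were summed per group. edgeR 4.0.16 (R 4.3.3) fitted the 16 sums with TMM normalization, filterByExpr, the pair as a block (7 residual degrees of freedom) and Benjamini-Hochberg adjustment. CPM are scaled to 1000000 counts of a sum's effective library size; pair differences used log2 of CPM plus 0.5. DESeq2 1.42.0 and limma 3.58.1 served as alternatives. DESeq2 gave adjusted p-values to 4471 genes. The edgeR fit was tested on simulated data, and 2.7% of its calls there were false.

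Symbols matched 24902 of 33757 features in GENCODE M21, and features without one held 1.07% of counts. Members and lists were chosen with earlier results of these data known. Reporters, fixed cycle and histone genes and the 2 members of each list with the lowest p were named. Other genes are named because an alternative called them. A few genes these rules name are not reported here. Each well got 1 cell and no doublet caller was run. 3 cells of the groups held 2100, 3067 and 59824 counts.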

Additional observations from a re-analysis of the deposited data

Results flagged for a closer look

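The G2/M list in bin 3 of plate 1 stood apart from the other pairs. Its median log2 difference between bright and dim cells was -1.87, against 0.45 to 2.26 in the other 7 pairs, whose median was 0.76. The gap to the nearest pair was 0.56 of the whole range, above the critical value of Dixon's test for 8 values. Of 38 sets of 8 pair values examined in this way, 1 was marked, and such a test marks about 1 set in 20 by chance. In this gate 5 of 32 dim cells exceeded 2000 CPM of the list, against 1 of 32 bright cells.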

How the results depend on the processing

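Calls across all genes were few under every setting run. The count called between bright and dim was 0 by edgeR, 25 by DESeq2, 19 by DESeq2 without independent filtering, 3 with no filter on low counts (Tmpo, Sgk1 and the feature ENSMUSG00000140999.1) and 1 (Plk1) without replicate 1 (plate 2 alone). Leaving out 1 plate or 1 pair gave 0 to 4, with 4 without plate 1 bin 3. The count whose difference varied by plate was 0 by edgeR, 5 by DESeq2, 4 with no filter (Ucma, C4b, Slc6a12 and ENSMUSG00000133588.1) and 0 to 1 with a pair left out, with 1 (Aspn) without plate 1 bin 3. The fit holds each plate and gate as a block; with no replicate block 0 genes were called and iRFP differed by 0.52, so the block changed no call. The iRFP difference kept its sign in all 24 other settings, was 0.49 and past the threshold in DESeq2 without independent filtering, and ran from 0.39 to 0.57 with a plate or pair left out. Ranking cells by iRFP over forward scatter area gave 28 of the 81 genes examined singly the other sign, and gates cut at the median 13. Of the former, those that moved by more than their SD over pairs were Top2a (-0.65), Cdk1 (-0.71), Ube2c (-0.72), Plk1 (-0.51), Mxd3 (-0.54), Arhgap19 (-0.84), Lmnb1 (-0.31), Hmgb2 (-0.24), H2afx (-0.20), Tuba1b (-0.20), Smc2 (-0.18), Hjurp (-0.10), Casp8ap2 (-0.070) and Ect2 (-0.069), and the long and short axis moments also turned (-0.0061 and -0.0023). Without cells above 2000 CPM of the G2/M list, which by construction are those highest in these genes, Ect2 was at -0.46 and Ube2c at -0.35. The cause was not tested. Of 52 replication-dependent histone genes, 20 passed the filter on low counts.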

Other observations

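The median of cholesterol synthesis genes lay below 0 between bright and dim cells in every pair, by small amounts. These lists were written after the values were seen, so their counts are a description and no test supports them. All 19 cholesterol synthesis genes were fitted below 0, with a median log2 difference of -0.15, and the list's median was below 0 in 8 of 8 pairs (-0.27 to -0.02). At an unadjusted p under 0.05 there were 14 of the 19, all lower, beside 3.13% of all genes tested that were lower. None passed the edgeR test after adjustment over all genes. DESeq2 called 2 of the 19 lower, beside 0.403% of the 4471 genes to which it gave an adjusted p. One that DESeq2 called was Pmvk, phosphomevalonate kinase (log2 difference -0.26). The list median of middle against dim cells was -0.17 (above 0 in 3 of 8 pairs) and that of bright against middle cells -0.03 (above 0 in 4 of 8).

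Fatty acid synthesis showed a like shift. Of 12 genes, 10 were fitted below 0 with a median of -0.11, and 6 had an unadjusted p under 0.05, all lower (beside 3.13% of all genes tested that were lower). The desaturase Scd1 had a dim median of 375 CPM (348 to 438) and a bright median of 340 CPM (256 to 376), lower in 8 of 8 pairs, and the synthase Fasn had 233 and 207 CPM. Of all genes tested, 0.59% were lower in 8 of 8 pairs. Among 16 glutathione enzymes tested the median was -0.18, with 7 lower and 1 higher at an unadjusted p under 0.05 (beside 6.25% of all genes in either direction). Gstp1, a glutathione transferase, had a dim median of 450 CPM (387 to 589) and a bright median of 407 CPM (345 to 465), lower in 8 of 8 pairs (-0.21 ± 0.04, SE). Near-identical copies such as Gstp2 may share its reads. Without cells above 2000 CPM of the G2/M list, the cholesterol list's median was -0.16, and with cells ranked by iRFP over forward scatter area it was -0.13. Over the alternatives that kept all plates and pairs, it ran from -0.19 to -0.08. The fatty acid median ran there from -0.15 to -0.05 and the glutathione median from -0.20 to -0.09. The middle group's list median lay between the outer groups in 2 (cholesterol), 1 (fatty acid) and 0 (glutathione) of 8 gates.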
